A study of Mus musculus with 17 samples.

Results

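The C2C12 line carrying SRF-PDGFRB was compared with the C2C12 line carrying pMSCV, across all 15062 genes in the deposited table of raw counts. The members were the libraries whose titles name these lines: 2 for SRF-PDGFRB (replicates 1 and 2) and 3 for pMSCV (replicates 1 to 3), together 5 of the 17 libraries in the series. C2C12 is a mouse myoblast line, which can be driven to form multinucleated skeletal muscle fibres in culture. Both lines were grown in the same medium with 10% fetal bovine serum. The labels name SRF-PDGFRB or pMSCV as the only difference between them, and pMSCV is the retroviral vector with no insert. SRF-PDGFRB is named for a fusion of serum response factor (SRF) with the beta receptor for platelet-derived growth factor (PDGFRB). Whether a line is a clone or a pool of cells, the species of the introduced sequence and the origin of the replicates in separate cultures are not given in the sources used here. P-values therefore measure the spread between these libraries, which may be technical. The other 12 libraries, 3 each of C2C12 with SRF, SRF-FOXO1, SRF-ICA1L or SRF-RELA, entered the estimate of the spread and are given as ranges beside the results.

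SRF is a transcription factor that binds the CArG box. It turns on immediate-early genes within minutes of growth factor or serum stimulation through the ERK pathway, and cytoskeletal and muscle genes through actin-regulated cofactors. PDGFRB is a receptor tyrosine kinase of pericytes and smooth muscle cells that signals to ERK, phosphoinositide 3-kinase and STAT proteins. Much of the comparison below concerns genes induced by interferons, the antiviral cytokines. Interferon receptors signal through JAK kinases to STAT proteins, which with IRF9 and other IRF factors switch on genes for antiviral proteins, for large GTPases that attack intracellular pathogens and for antigen presentation.

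The 2 SRF-PDGFRB libraries held 20901442 and 22522196 counts, and the pMSCV libraries between 21747292 and 22278138. The 2 libraries of the line were not alike. Over 12416 genes with a mean log2 CPM above 0, their log2 CPM correlated at r = 0.904, a description across genes. CPM here are counts per 1000000 after scaling by TMM factors. Replicate 1 was closer to SRF-FOXO1 replicate 2 (r = 0.984), and replicate 2 was closer to SRF-ICA1L replicate 3 (r = 0.982). The 4 libraries most like SRF-PDGFRB replicate 2 were the replicates numbered 3 of SRF-ICA1L, SRF, SRF-RELA and pMSCV (r = 0.969 to 0.982). What a replicate number stands for is not given in the sources used here. Each result is therefore given for both libraries, and where they disagree this is stated.

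The introduced genes came first. Srf stood at 70.5 and 81.4 CPM in the SRF-PDGFRB libraries and at 66.6, 93.8 and 83.4 CPM in the pMSCV libraries. The groups overlapped, and the log2 fold change was -0.10 (SE 0.38; edgeR adjusted p = 0.988). Every adjusted p here is from the quasi-likelihood test of edgeR after Benjamini-Hochberg correction for 15062 genes. In the line given SRF alone, by contrast, Srf stood at 678 to 1673 CPM. Pdgfrb stood at 247 and 196 CPM in SRF-PDGFRB and at 159, 345 and 103 CPM in pMSCV (log2 fold change 0.13, SE 0.46; edgeR adjusted p = 0.986), again with overlapping groups. Without SRF-PDGFRB replicate 1, pMSCV replicate 1 or pMSCV replicate 3 the sign of the Pdgfrb value turned. The counts of these mouse genes thus gave no check of the label, and how far transcripts of the fusion counted towards them is not known.

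Against pMSCV, 3 of 15062 genes were called at an adjusted p below 0.05 (0.0199%), all higher in SRF-PDGFRB: Gbp3, Gbp2b and Iigp1. All encode interferon-inducible GTPases, and Gbp3 (chr3:142560026-142573209, GRCm38) and Gbp2b (chr3:142594847-142619179) are neighbours on chromosome 3. Gbp2b and Gbp3 are guanylate-binding proteins, which assemble on membranes around intracellular pathogens, and Iigp1 is an immunity-related GTPase that loads onto parasite vacuoles. Gbp3 stood at 30.0 and 19.5 CPM in the SRF-PDGFRB libraries and at 1.06, 0.882 and 0.888 CPM in the pMSCV libraries. Both libraries of the line lay far above all pMSCV libraries, with means of 24.8 ± 7.39 CPM (SD, n = 2) and 0.943 ± 0.102 CPM (SD, n = 3). The log2 fold change was 4.71 (SE 0.49; edgeR adjusted p = 0.0023). Gbp2b stood at 71.4 and 37.6 CPM against 0.507, 1.19 and 0.514 CPM, so that the groups did not overlap (log2 fold change 6.19, SE 0.89; edgeR adjusted p = 0.044). Iigp1 stood at 49.5 and 39.4 CPM against 0.0922, 0.220 and 0 CPM (2, 5 and 0 counts), again with no overlap (log2 fold change 8.64, SE 1.27; edgeR adjusted p = 0.044). The call of Gbp3 held when any 1 of the 5 libraries was left out, with an edgeR adjusted p of 0.00707 to 0.0425. Gbp2b and Iigp1 stayed called without SRF-PDGFRB replicate 2 and lost the call without any other of the 5 libraries.

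The number of called genes depended on the libraries and on the tool. It was 75 without SRF-PDGFRB replicate 2 (30 higher, 45 lower) and 1 without SRF-PDGFRB replicate 1, where in both cases the single library left was assumed to vary like the other groups. It was 1, 2 and 1 without pMSCV replicates 1, 2 and 3, and 1 among genes with at least 1 CPM in at least 2 libraries. With DESeq2 on the same libraries 70 genes were called (49 higher, 21 lower), and with only the 5 libraries compared none was called by edgeR, where 360 genes had an unadjusted p below 0.05. In the fit over all libraries, 1160 genes (7.70%) had an unadjusted p below 0.05, of which 691 (4.59%) were higher and 469 (3.11%) lower. Both libraries of the line exceeded all 3 pMSCV libraries in 1306 genes (8.67%) and stood below them in 1089 (7.23%). The members of each gene list below are read against these shares, and against a median log2 fold change of 0.01 over all genes tested.

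The list of interferon-inducible GTPases was where the line stood apart most. Of 23 genes on the list, 15 were in the table, and all 15 lay above all 3 pMSCV libraries in both SRF-PDGFRB libraries. The table holds only genes with at least 10 counts in at least 3 libraries. High counts in the 2 SRF-PDGFRB libraries could thus help members such as Gbp5 into it, and members low in every line would be missing. The share of 15 of 15 is therefore set in part by that filter. The 3 called genes were among them, 14 of 15 were higher at an unadjusted p below 0.05, and the median log2 fold change was 4.88. DESeq2 called 13 of the 15. The libraries of the line agreed, with median log2 differences from the pMSCV mean of 5.18 in replicate 1 and 4.78 in replicate 2. The summed level of the list was 378 and 282 CPM in SRF-PDGFRB, 20.5 to 43.8 CPM in pMSCV and 21.1 to 63.3 CPM in the other 12 libraries. In all 15 genes both SRF-PDGFRB libraries also lay above every one of the other 15 libraries, a pattern held by 104 of all genes tested (0.690%). The reverse, below all 15, was held by 38 genes (0.252%). The 2 libraries most like SRF-PDGFRB replicates 1 and 2 over all genes, SRF-FOXO1 replicate 2 and SRF-ICA1L replicate 3, had summed levels of 35.2 and 30.7 CPM.

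**Figure D1:**
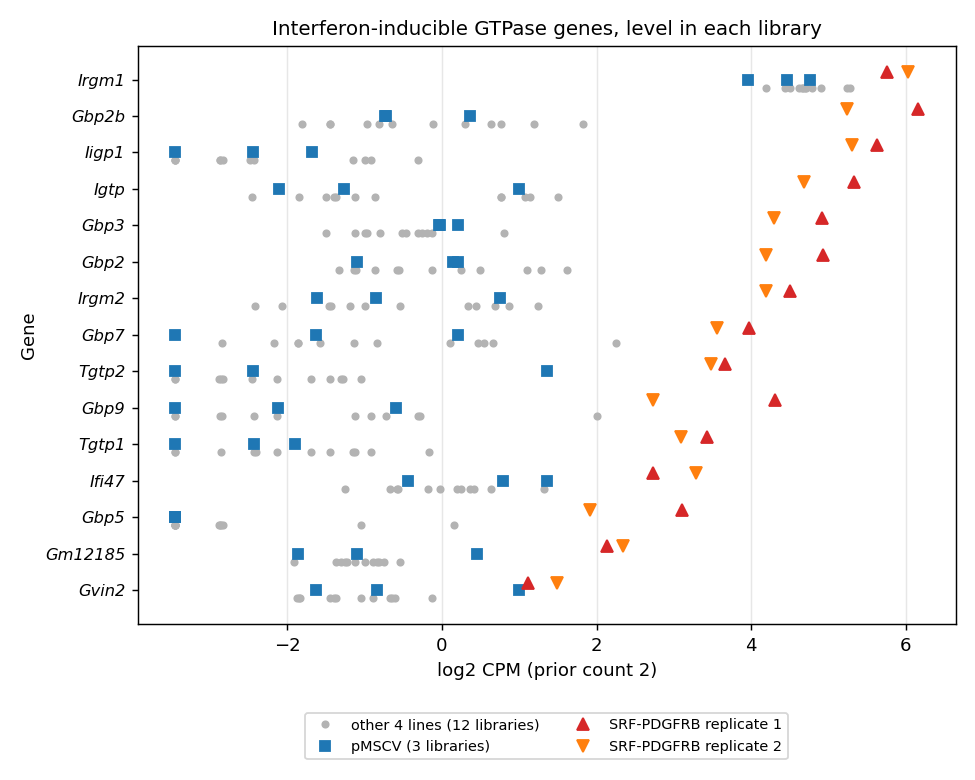
Level of each interferon-inducible GTPase gene in each library, as log2 CPM with a prior count of 2 (horizontal axis), with 1 row per gene. Triangles are the 2 SRF-PDGFRB libraries, squares the 3 pMSCV libraries and grey points the 12 libraries of the other 4 lines. In all 15 genes both triangles lie to the right of every square and grey point, narrowly so in Gvin2.

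Of the guanylate-binding protein genes not called, Gbp2 stood at 30.3 and 18.2 CPM in SRF-PDGFRB and at 1.06, 1.01 and 0.374 CPM in pMSCV. The groups did not overlap, and the log2 fold change of 4.88 (SE 0.85) had an edgeR adjusted p of 0.0963. Gbp5 had no count in any pMSCV library and stood at 8.49 and 3.69 CPM in SRF-PDGFRB, at least 44.5-fold above the limit that 3 counts set per pMSCV library (edgeR adjusted p = 0.0963). Gbp7 stood at 15.6 and 11.7 CPM against 0.231, 1.06 and 0 CPM. Gbp9 showed the widest gap between the replicates of these genes, at 19.7 and 6.54 CPM against 0.138, 0.573 and 0 CPM (log2 fold change 5.74, SE 1.46; edgeR adjusted p = 0.433). The Gbp genes in the table other than Gbp9 lie side by side within 144 kb of chromosome 3 (GRCm38 chr3:142493978-142638008), in the order Gbp5, Gbp7, Gbp3, Gbp2b and Gbp2. The 4 other genes of the table within 300 kb of this stretch (Pdlim5, Kyat3, Gtf2b and Pkn2) had log2 fold changes of 0.09 to 0.54, none with an unadjusted p below 0.05.

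The immunity-related GTPases, which target vacuoles holding parasites or bacteria, showed the same pattern. Igtp stood at 40.3 and 25.6 CPM in SRF-PDGFRB and at 0.323, 1.90 and 0.140 CPM in pMSCV (log2 fold change 5.37, SE 1.18; edgeR adjusted p = 0.309). Tgtp1 stood at 10.7 and 8.45 CPM against 0, 0.176 and 0.0935 CPM (log2 fold change 6.63, SE 1.22; edgeR adjusted p = 0.149). In both genes the SRF-PDGFRB libraries were close to each other and far above pMSCV. Irgm1, a regulator of the other GTPases, was well counted in every pMSCV library too: it stood at 53.9 and 64.9 CPM against 15.5, 27.1 and 22 CPM. Its log2 fold change was 1.46 (SE 0.24; edgeR adjusted p = 0.0963), with replicate 2 the higher of the pair. Gvin2 had the weakest separation on the list, at 2.07 and 2.71 CPM against 0.231, 1.90 and 0.467 CPM (log2 fold change 1.46, SE 0.74; edgeR adjusted p = 0.675). The remaining members, Irgm2, Tgtp2, Ifi47 and Gm12185, stood at 4.32 to 22.6 CPM in SRF-PDGFRB and at 0 to 2.47 CPM in pMSCV, with log2 fold changes of 2.35 to 4.73. Tgtp1 and Tgtp2 are near-identical copies, Irgm2 overlaps Igtp on the same strand and Gm12185 overlaps Tgtp1, so the authors' counting may have split or dropped their shared reads.

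Because the GTPase genes were high together, on chromosomes 3 and 11 alike, their promoters were searched for 3 motifs. These were GAAANNGAAA, the core of the element bound by IRF factors; TTCNNNGAA, the core of the element bound by STAT dimers; and the CArG box. Both strands were searched, so that TTTCNNTTTC is the same match as GAAANNGAAA. The sequences are RefSeq's (GRCm38.p6), from 250 bases before to 50 bases after each start. Of the 15 genes 12 were matched by symbol, and Gbp9, Gvin2 and Iigp1 were not. GAAANNGAAA was present in 11 of the 12 genes (84.6% of their 13 promoters), against 3.44% of all 32851 promoters in the table. TTCNNNGAA was present in 7 of the 12 genes (53.8% of promoters), against 8.30% of all promoters. The CArG box was in none of the 12, against 1.63% of all promoters, while 8 of 25 genes on the list of SRF cytoskeletal targets held it. At so low a share of all promoters, no match among 12 genes is the likely outcome for any set, so no conclusion is drawn from its absence. On the other interferon lists, GAAANNGAAA was in 16.7% to 38.5% of promoters. The GTPase list was drawn up as interferon-inducible genes, so a high share of IRF and STAT elements was likely from the start. It is no evidence about this line. Some of the 12 are near-identical copies, such as Tgtp1 and Tgtp2, so their matches are not separate observations. A match is a description of the sequence and no evidence of binding.

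The 250 bases before the start are shown for 6 of these genes, 3 guanylate-binding and 3 immunity-related, because they let the position of the matches be compared. Gbp3 has a pair of starts in the table, and the one with a match is shown. Each is written 5′ to 3′ on the strand of the gene, and capitals mark GAAANNGAAA (or TTTCNNTTTC) and TTCNNNGAA. The windows are chr3:142559794-142560043 (plus strand) for Gbp3, chr3:142594597-142594846 (plus) for Gbp2b, chr3:142620413-142620662 (plus) for Gbp2, chr11:58199306-58199555 (plus) for Igtp, chr11:48992247-48992496 (minus) for Tgtp1 and chr11:48871421-48871670 (minus) for Irgm1.
Gbp3: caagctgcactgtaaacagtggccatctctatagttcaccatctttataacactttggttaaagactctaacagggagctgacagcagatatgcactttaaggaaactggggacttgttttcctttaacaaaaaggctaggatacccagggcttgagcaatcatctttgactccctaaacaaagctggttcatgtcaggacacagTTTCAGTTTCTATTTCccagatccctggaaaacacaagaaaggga
Gbp2b: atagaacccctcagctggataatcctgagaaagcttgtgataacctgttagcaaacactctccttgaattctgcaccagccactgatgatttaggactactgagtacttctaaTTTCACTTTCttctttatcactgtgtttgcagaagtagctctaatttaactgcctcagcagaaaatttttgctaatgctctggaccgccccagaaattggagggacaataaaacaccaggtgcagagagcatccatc
Gbp2: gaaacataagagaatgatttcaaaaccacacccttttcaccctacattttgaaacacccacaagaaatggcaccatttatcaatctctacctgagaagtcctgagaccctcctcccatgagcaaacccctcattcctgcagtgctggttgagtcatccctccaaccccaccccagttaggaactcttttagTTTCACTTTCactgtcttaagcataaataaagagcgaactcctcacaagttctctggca
Igtp: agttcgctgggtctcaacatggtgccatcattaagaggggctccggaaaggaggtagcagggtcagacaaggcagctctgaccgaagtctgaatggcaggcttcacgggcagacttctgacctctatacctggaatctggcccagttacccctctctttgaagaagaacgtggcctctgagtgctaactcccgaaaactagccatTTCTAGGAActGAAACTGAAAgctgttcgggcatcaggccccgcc
Tgtp1: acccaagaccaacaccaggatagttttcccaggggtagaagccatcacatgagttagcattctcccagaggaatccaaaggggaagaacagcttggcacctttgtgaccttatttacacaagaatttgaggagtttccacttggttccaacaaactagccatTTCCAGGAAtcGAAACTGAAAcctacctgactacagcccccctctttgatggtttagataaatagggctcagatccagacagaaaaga
Irgm1: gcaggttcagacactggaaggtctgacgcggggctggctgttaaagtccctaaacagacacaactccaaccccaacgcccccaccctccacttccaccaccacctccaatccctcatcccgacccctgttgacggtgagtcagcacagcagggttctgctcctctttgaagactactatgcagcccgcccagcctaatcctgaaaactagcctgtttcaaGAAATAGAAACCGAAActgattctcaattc

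The match to GAAANNGAAA began 34 bases before the start in Igtp, 59 in Gbp2, 77 in Tgtp1 and 137 in Gbp2b. In Gbp3 and Irgm1 a pair of matches overlapped, beginning 45 and 39 bases before the start in Gbp3 and 30 and 24 bases before it in Irgm1. In Igtp and Tgtp1, TTCNNNGAA lay just before it, beginning at 45 and 88 bases. The same pair stood at 75 and 64 bases in Irgm2 and at 81 and 70 bases in Tgtp2.

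Antiviral interferon-stimulated genes followed the same direction with smaller and less even differences. Of 50 genes on the list 38 were in the table. With all libraries in, none was called by edgeR (2 without SRF-PDGFRB replicate 2), 21 of 38 were higher and none lower at an unadjusted p below 0.05, and in 20 both SRF-PDGFRB libraries exceeded every pMSCV library. The median log2 fold change was 1.16, with medians of 1.44 in replicate 1 and 0.83 in replicate 2. Replicate 1 was the higher of the libraries in 30 of 38 genes. Without replicate 1 the median was 0.62, with 13 genes higher at an unadjusted p below 0.05. DESeq2 called 5 of the 38. One pMSCV library moved with these genes: replicate 2 had a summed level of 1154 CPM, against 690 and 643 CPM in the others and 1307 and 1025 CPM in SRF-PDGFRB. The other 12 libraries stood at 586 to 1173 CPM, so that replicate 1 lay above all of them and replicate 2 within their range.

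Mx1, a dynamin-like GTPase that blocks influenza viruses, stood at 11.4 and 5.92 CPM in SRF-PDGFRB and at 0.0461, 0.441 and 0.280 CPM in pMSCV. The groups did not overlap (log2 fold change 5.04, SE 0.84; edgeR adjusted p = 0.0963). Rsad2 (viperin), which makes a chain-terminating nucleotide, stood at 28.2 and 16.2 CPM against 0.876, 1.32 and 2.01 CPM (log2 fold change 3.98, SE 0.84; edgeR adjusted p = 0.309). Cmpk2, its neighbour on chromosome 12 and a nucleotide kinase, stood at 7.62 and 11.2 CPM against 0.231, 0.0882 and 0.795 CPM. All 3 genes were far above pMSCV in both libraries.

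Trim30a, a ubiquitin ligase of the tripartite motif family, stood at 13.5 and 7.56 CPM against 0.184, 0.705 and 0.0467 CPM (log2 fold change 5.04, SE 1.32; edgeR adjusted p = 0.468). Zbp1, a sensor of Z-form nucleic acid that starts necroptosis, stood at 11 and 8.85 CPM against 0.184, 2.25 and 0.0935 CPM. Bst2 (tetherin), which holds budding virus at the cell surface, stood at 25.7 and 16.1 CPM against 4.01, 9.12 and 2.52 CPM (log2 fold change 2.0, SE 0.54; edgeR adjusted p = 0.478). In these genes too the groups did not overlap. For Trim30a, replicate 2 lay within the range of the other 12 libraries (0 to 8.7 CPM). Ifit1, whose product binds viral RNA caps, stood at 52.1 and 23.6 CPM against 2.67, 16.6 and 1.17 CPM, with pMSCV replicate 2 close to the lower SRF-PDGFRB library.

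Eif2ak2 (PKR), a kinase that halts translation on sensing double-stranded RNA, stood at 76.3 and 63.6 CPM against 41.7, 38.7 and 41.2 CPM (log2 fold change 0.79, SE 0.18; edgeR adjusted p = 0.347). Parp12, an ADP-ribosyltransferase, stood at 46.0 and 24.8 CPM against 10.5, 14.9 and 11.3 CPM (log2 fold change 1.53, SE 0.32; edgeR adjusted p = 0.309). In the other 12 libraries Eif2ak2 stood at 44.2 to 76.1 CPM, above every pMSCV library, and Parp12 at 13.1 to 38.7 CPM. For both genes replicate 2 lay within that range. The interferon-induced membrane proteins went the other way in value: Ifitm3, which keeps viruses from fusing with endosomes, stood at 87.3 and 144 CPM against 132, 306 and 140 CPM. Its groups overlapped (log2 fold change -0.73, SE 0.42; edgeR adjusted p = 0.735).

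Among the genes of MHC class I antigen presentation, 19 of 21 were in the table, none was called by edgeR, and 6 were higher and none lower at an unadjusted p below 0.05. The median log2 fold change was 0.37, and both libraries lay above pMSCV in 8. The 6 were mainly processing genes. Psmb9, an interferon-induced subunit of the immunoproteasome, stood at 6.47 and 2.94 CPM in SRF-PDGFRB and at 0.138, 0.309 and 0 CPM in pMSCV (log2 fold change 4.91, SE 1.18; edgeR adjusted p = 0.422). Psmb8, its partner subunit, stood at 5.51 and 4.76 CPM against 0.138, 0.926 and 0.0467 CPM (log2 fold change 3.76, SE 1.32; edgeR adjusted p = 0.531). For both genes the groups did not overlap. Erap1, which trims peptides in the endoplasmic reticulum, was the smallest of the 6, at 19.2 and 22.2 CPM against 13.8, 12.2 and 14.1 CPM. Its SRF-PDGFRB values lay within the range of the other 12 libraries (13.4 to 28.4 CPM).

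Tap1, a subunit of the peptide transporter that overlaps Psmb9 on the opposite strand, stood at 25.1 and 8.23 CPM against 1.61, 6.13 and 1.40 CPM (log2 fold change 2.45, SE 0.95; edgeR adjusted p = 0.569). Nlrc5, the transactivator of class I genes, stood at 13.7 and 8.32 CPM against 6.87, 5.69 and 4.30 CPM (log2 fold change 0.97, SE 0.37; edgeR adjusted p = 0.568). Of the class I heavy chains, H2-Q4 stood at 27.8 and 19.9 CPM against 4.98, 13.1 and 6.12 CPM (log2 fold change 1.56, SE 0.45; edgeR adjusted p = 0.478). In all 3 genes SRF-PDGFRB lay above pMSCV, in Tap1 and Nlrc5 with replicate 2 close to the highest pMSCV library. For Tap1, replicate 2 also lay within the range of the other 12 libraries (0.741 to 10.0 CPM). H2-K1 stood at 86.0 and 73.1 CPM against 64.9, 70.9 and 49.2 CPM, and B2m, the invariant light chain, at 464 and 445 CPM against 389, 498 and 291 CPM. H2-K1 did not overlap by a narrow margin, and B2m overlapped (edgeR adjusted p = 0.769 and 0.924).

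No interferon gene of the list (Ifnb1, Ifng, Ifna4, Ifnl2, Ifnl3 and Ifne) was in the table, which holds only genes that reached 10 counts in at least 3 libraries, so that 2 libraries could not bring a gene in by themselves. The receptors Ifnar1, Ifnar2, Ifngr1 and Ifngr2 had log2 fold changes of -0.07 to 0.17 (edgeR adjusted p = 0.940 to 0.987). Of the 18 genes in the table for interferon receptors, JAK kinases, STAT and IRF factors, none was called and 5 were higher at an unadjusted p below 0.05, with a median log2 fold change of 0.20. Stat2, a transcription factor activated by the type I interferon receptor, stood at 38.8 and 39.3 CPM in SRF-PDGFRB and at 21.4, 23.8 and 15.6 CPM in pMSCV (log2 fold change 0.94, SE 0.28; edgeR adjusted p = 0.484). The SRF-PDGFRB libraries nearly coincided and exceeded every pMSCV library, but lay within the range of the other 12 libraries (16.8 to 42.3 CPM).

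Irf9, a DNA-binding partner of STAT2, stood at 17 and 16.4 CPM against 8.81, 14 and 7.24 CPM (log2 fold change 0.74, SE 0.34; edgeR adjusted p = 0.645). Irf7, the main amplifier of interferon production, stood at 12.6 and 5.74 CPM against 1.01, 2.82 and 1.03 CPM (log2 fold change 2.50, SE 0.91; edgeR adjusted p = 0.543). Jak2, a kinase of the interferon-gamma receptor, stood at 132 and 91.6 CPM against 72.9, 77.5 and 57.6 CPM (log2 fold change 0.69, SE 0.23; edgeR adjusted p = 0.515). SRF-PDGFRB lay above pMSCV in each, but for Jak2 within the range of the other 12 libraries (78.5 to 192 CPM). Irf1 stood at 89.6 and 41.6 CPM against 16.7, 41.6 and 28.9 CPM, where replicate 2 equalled the highest pMSCV library as printed.

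Of 14 nucleic acid sensors and adaptors in the table, none was called and 5 were higher at an unadjusted p below 0.05, with a median log2 fold change of 0.69 (0.29 without replicate 1). Tlr3, the endosomal receptor for double-stranded RNA, stood at 16.7 and 8.76 CPM against 5.30, 2.20 and 3.88 CPM (log2 fold change 1.75, SE 0.42; edgeR adjusted p = 0.422). Ifi204, a DNA-binding protein, stood at 54.4 and 58.8 CPM against 28.3, 41.8 and 32.7 CPM (log2 fold change 0.72, SE 0.18; edgeR adjusted p = 0.422). SRF-PDGFRB lay above pMSCV in both genes. Against the other 12 libraries, both libraries were within the range for Ifi204 (41.6 to 64.9 CPM), and for Tlr3 (4.91 to 11.9 CPM) replicate 2 was within it and replicate 1 above it. The 3 others were Mndal and Ifi203, which overlap each other on 1 strand, and Tbk1, the kinase that activates IRF3, with log2 fold changes of 1.52, 0.99 and 0.47. Ddx58 (RIG-I) stood at 41.1 and 22.5 CPM against 10.1, 25.7 and 6.26 CPM, with replicate 2 inside the pMSCV range.

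Of 17 cytokines and chemokines in the table none was called (1 without replicate 2) and 3 were higher at an unadjusted p below 0.05, and the median log2 fold change of 0.54 became -0.29 without replicate 1. Their summed level was 1548 CPM in replicate 1 and 721 CPM in replicate 2, against 630, 1545 and 691 CPM in pMSCV and 847 to 2207 CPM in the other 12 libraries. Cxcl10, a T cell attractant induced by interferon, stood at 18.2 and 4.63 CPM against 0.830, 2.34 and 0.421 CPM (log2 fold change 3.24, SE 1.13; edgeR adjusted p = 0.531). Cd274, which encodes the checkpoint ligand PD-L1, stood at 15.9 and 3.03 CPM against 1.66, 0.838 and 1.03 CPM (log2 fold change 3.0, SE 0.94; edgeR adjusted p = 0.501). Both libraries lay above pMSCV in these genes, replicate 1 by far more. Csf1, the macrophage growth factor, was the remaining gene, at 583 and 349 CPM against 190, 314 and 384 CPM, with replicate 2 inside the pMSCV range.

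Across the 5 interferon lists, 51 of 104 genes in the table were higher and none lower with an unadjusted p below 0.05. These lists hold 104 of the 15062 genes tested and were chosen with earlier results of these data known. Their share of the genes that stand apart is therefore no independent evidence. Of the 104 genes in which both libraries exceeded all other 15, 41 belonged to these lists. Among 28 genes above all pMSCV libraries in both, with at least 1 CPM and at least 4-fold above the pMSCV mean, 25 did, and the other 3 were Cxcl10, Phf11b and Slfn2, of which the last pair was chosen after the values were seen. Slfn2, a regulator of T cell quiescence induced by interferon, stood at 7.30 and 3.29 CPM against 0.0461, 0.353 and 0.187 CPM. Phf11b stood at 4.55 and 1.78 CPM against 0, 0.617 and 0.0935 CPM. Neither overlapped with pMSCV. Of 12 leukocyte markers 4 were in the table, with summed levels of 30.2 CPM in SRF-PDGFRB replicate 1, 15.7 CPM in replicate 2 and 17.6 to 23.7 CPM in pMSCV. By log2 fold change 3 of the 4 were higher and 1 lower, with 1 higher at an unadjusted p below 0.05. In none did both SRF-PDGFRB libraries exceed every pMSCV library. Their median log2 difference from the pMSCV mean was 1.56 in replicate 1 and -0.74 in replicate 2. The defining markers Ptprc, Adgre1, Itgam and Cd3e were not in the table, and the part of leukocyte RNA in the result was not tested.

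**Figure D2:**
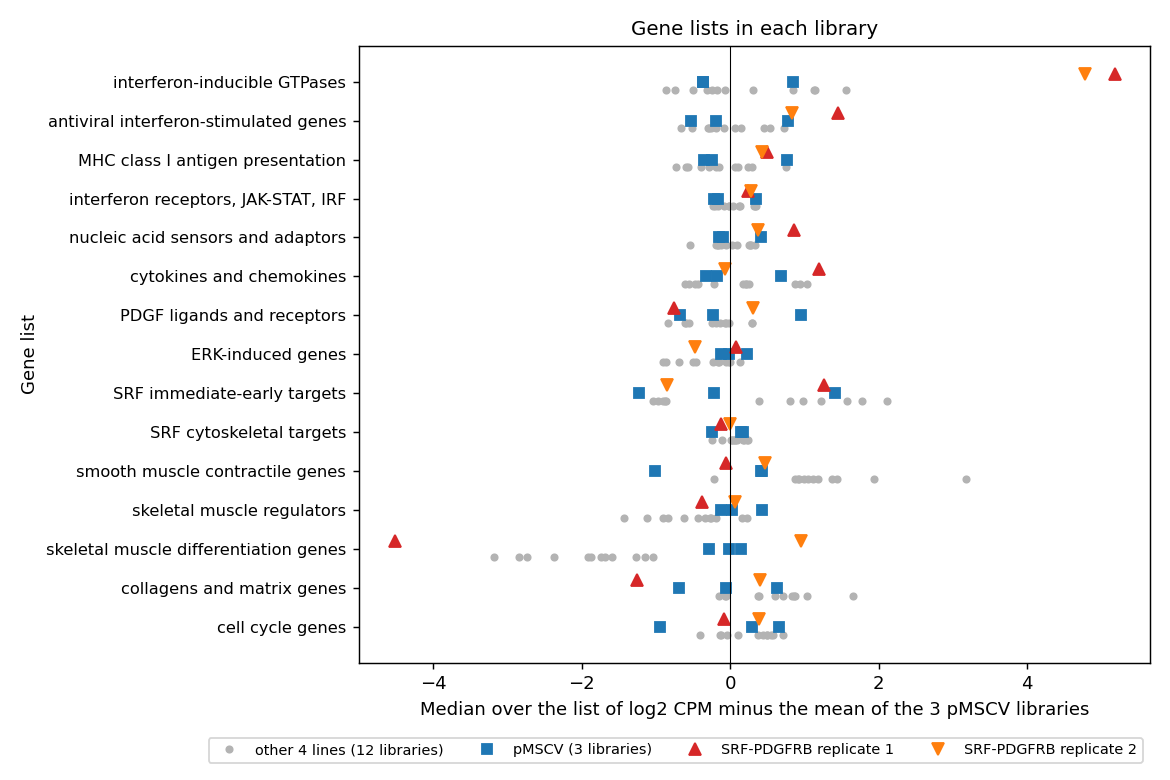
Median over each gene list of log2 CPM minus the mean of the 3 pMSCV libraries (horizontal axis), with 1 row per list and 1 point per library. Triangles are the SRF-PDGFRB libraries, squares the pMSCV libraries and grey points the other 12. Both triangles stand apart at 5.18 and 4.78 for the GTPases, while for skeletal muscle differentiation genes they lie at opposite ends, at -4.52 and 0.96.

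To see whether the GTPase values were shared by other fusions, SRF-PDGFRB was tested against the mean of SRF-FOXO1, SRF-ICA1L and SRF-RELA in the same fit. This contrast holds the same SRF-PDGFRB libraries as the comparison with pMSCV, so it is no independent evidence for their level. At an unadjusted p below 0.05 it gave 448 genes (2.97%), 287 higher (1.91%) and 161 lower (1.07%). It called 21 genes (0.139%), all higher in SRF-PDGFRB: 12 GTPases, 5 antiviral genes (Cmpk2, Mx1, Rsad2, Xaf1 and Zbp1), H2-K1 and Nlrc5, and the unlisted Mpeg1 and Olfr56. Gbp3 was higher than in those lines by 5.12 on the log2 scale (SE 0.33; edgeR adjusted p = 4.91e-06), where the 9 fusion libraries reached 1.65 CPM at most. Iigp1 was higher by 7.76 (SE 0.76; edgeR adjusted p = 0.000337), Rsad2 by 6.02 (SE 0.60; edgeR adjusted p = 0.000337) and Mx1 by 5.84 (SE 0.59; edgeR adjusted p = 0.000337). For all 4 genes both libraries of the line lay above all 9. Of the 21 genes only Gbp3, Gbp2b and Iigp1 were also called against pMSCV. For H2-K1 the 9 fusion libraries stood at 24.2 to 39.2 CPM, below every pMSCV library. For Nlrc5 they stood at 1.4 to 2.94 CPM, again below every pMSCV library (4.3 to 6.87 CPM).

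Genes tied to the introduced proteins gave no call. Of 7 genes for PDGF ligands and receptors none had an unadjusted p below 0.05 (median log2 fold change -0.17). Without SRF-PDGFRB replicate 2 the median was -1.07, with 3 of 7 lower at an unadjusted p below 0.05 and 1 called, while it was 0.04 without replicate 1 and 0.49 without pMSCV replicate 2. Pdgfra, the alpha receptor, stood at 52.9 and 27.8 CPM against 18.8, 51.7 and 10.1 CPM. Pdgfb and Pdgfd, both ligands, split the libraries of the line: Pdgfb stood at 0.0918 and 8.41 CPM against 0.830, 9.61 and 5.19 CPM, and Pdgfd at 0.551 and 16.0 CPM against 26.5, 15.3 and 9.91 CPM. Replicate 1 was below all pMSCV libraries in both ligands, and replicate 2 inside their range. Of 16 genes induced by ERK signalling, 1 was higher and 1 lower at an unadjusted p below 0.05. Spred1, an inhibitor of ERK signalling, stood at 107 and 106 CPM against 80.9, 69.8 and 81.6 CPM (log2 fold change 0.46, SE 0.17; edgeR adjusted p = 0.543). Dusp5, a nuclear ERK phosphatase, stood at 48.7 and 43.7 CPM against 86.8, 95.3 and 84.9 CPM (log2 fold change -0.95, SE 0.42; edgeR adjusted p = 0.620). The groups did not overlap in either gene, and both lay within the range of the other 12 libraries.

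Immediate-early targets of SRF separated the libraries of the line rather than the lines. None of 20 had an unadjusted p below 0.05, and their median log2 fold change was -0.04, with medians of 1.27 in replicate 1 and -0.84 in replicate 2. It was -1.62 without SRF-PDGFRB replicate 1, 0.43 without replicate 2 and 0.67 without pMSCV replicate 2. Egr1, a zinc finger factor, stood at 2574 and 170 CPM in SRF-PDGFRB and at 520, 1818 and 84.7 CPM in pMSCV. Fos, a subunit of AP-1, stood at 186 and 2.71 CPM against 159, 562 and 1.45 CPM, and Nr4a1, an orphan nuclear receptor, at 578 and 12.1 CPM against 210, 1275 and 18.1 CPM. In all 3 genes replicate 1 was high and replicate 2 low, and the pMSCV libraries differed among themselves by a larger ratio. The summed level of the list was 8840 and 1609 CPM in SRF-PDGFRB and 3104, 10632 and 1582 CPM in pMSCV. In the replicates numbered 3 of the other lines it was 1834 to 2736 CPM, near SRF-PDGFRB replicate 2, and in those numbered 2 it was 6610 to 13325 CPM.

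The SRF cytoskeletal targets were nearly level, with a median log2 fold change of -0.10 over 26 genes and none at an unadjusted p below 0.05. Actb stood at 2013 and 2616 CPM against 2612, 2766 and 4227 CPM (log2 fold change -0.47, SE 0.26), with replicate 1 below pMSCV. Of 10 smooth muscle contractile genes in the table none had an unadjusted p below 0.05 (median -0.18, and -0.32 to 0.23 when 1 library was left out). Acta2, smooth muscle actin, stood at 1978 and 1547 CPM against 222, 1592 and 2414 CPM, where pMSCV alone spanned the values of the line. Against the other fusions these genes had a median log2 difference of -2.0 with none called: Actg2 stood at 29.1 to 362 CPM in the other 12 libraries and at 57.1 and 34.5 CPM in SRF-PDGFRB. Myocd, the smooth muscle cofactor of SRF, was not in the table.

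Skeletal muscle differentiation genes, which encode sarcomere proteins and the receptor of the neuromuscular junction, were where the replicates disagreed most. In all 25 genes of the list in the table replicate 1 lay below replicate 2. The summed level was 105 CPM in replicate 1, the lowest of all 17 libraries, and 2879 CPM in replicate 2, the highest. The pMSCV libraries stood at 1755, 1579 and 2190 CPM and the other 12 at 242 to 1391 CPM. No gene had an unadjusted p below 0.05, and the median log2 fold change was -0.05. Without replicate 2 the median was -4.95, with 22 of 25 genes lower at an unadjusted p below 0.05. Without replicate 1 the median was 0.87, with 1 gene higher. The mean of the line therefore describes neither library.

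Des, the muscle intermediate filament, stood at 44.5 and 892 CPM in SRF-PDGFRB and at 481, 806 and 728 CPM in pMSCV. Cdh15, M-cadherin, stood at 12.9 and 412 CPM against 347, 206 and 392 CPM. Ttn, the giant elastic protein of the sarcomere, stood at 2.43 and 127 CPM against 108, 50.1 and 68.4 CPM. In all 3 genes replicate 1 was far below pMSCV and replicate 2 above its highest library. Of 13 upstream muscle regulators in the table none had an unadjusted p below 0.05 (median log2 fold change -0.28), while without SRF-PDGFRB replicate 2 there were 5 lower and 1 called. Myog, the factor that commits myoblasts to differentiate, stood at 0.230 and 85.5 CPM against 11, 13.6 and 22.4 CPM, so that replicate 1 was under and replicate 2 over the pMSCV range. Mymk, which encodes the fusion protein myomaker, stood at 0.0918 and 26.8 CPM against 10.2, 4.63 and 14.7 CPM. Myod1, the myogenic determination factor, stood at 5.69 and 111 CPM against 61.1, 44.9 and 107 CPM.

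**Figure D3:**
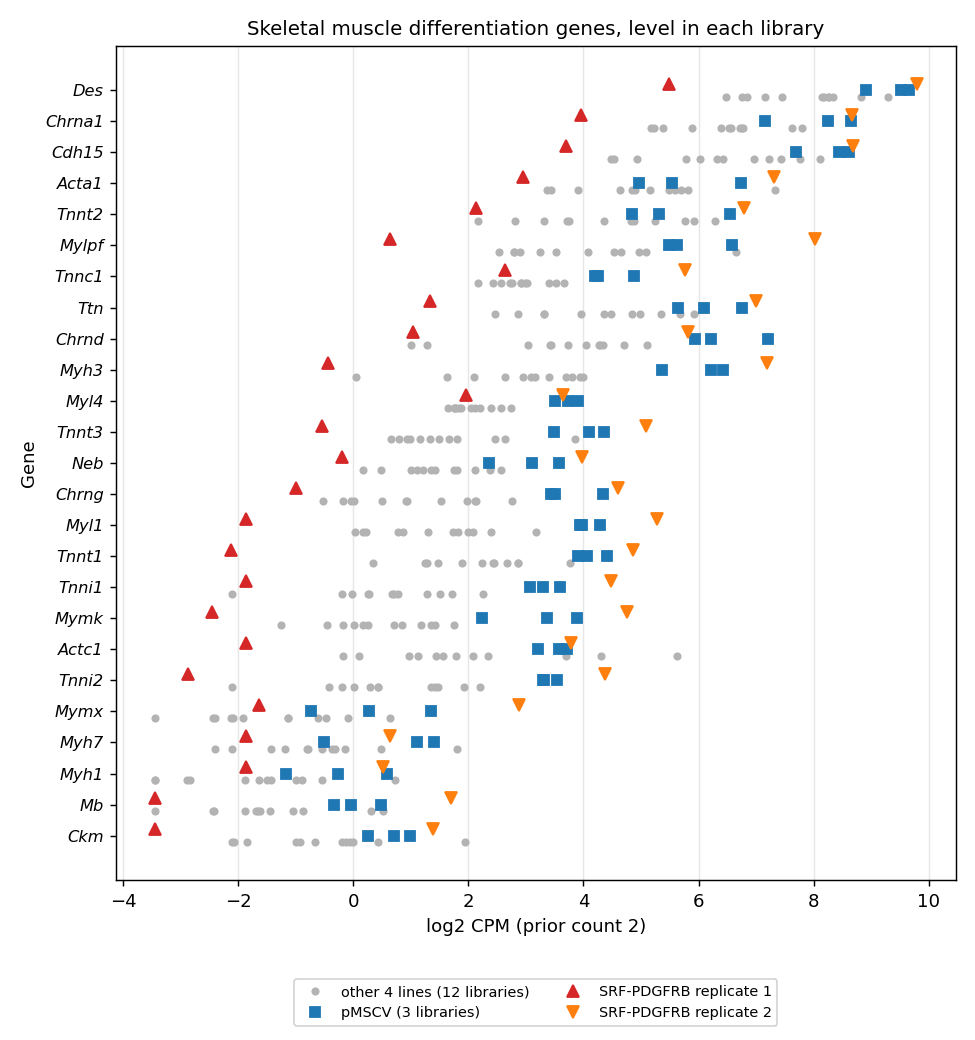
Level of each skeletal muscle differentiation gene in each library, as log2 CPM with a prior count of 2 (horizontal axis), with 1 row per gene. Triangles are the SRF-PDGFRB libraries, squares the pMSCV libraries and grey points the other 12. In all 25 genes replicate 1 (upward triangle) lies left of replicate 2 (downward triangle).

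The myoblast markers (7 of 7 in the table) split in the same way, with a summed level of 437 CPM in replicate 1 and 2554 CPM in replicate 2 against 1854 to 2239 CPM in pMSCV. The other 12 libraries stood at 409 to 1616 CPM, so that replicate 1 lay within their range and replicate 2 above it. Of the 7 markers, 1 went the other way and was higher in replicate 1 than in replicate 2. For Myod1, Des and Cdh15 the label of a myoblast line is met in replicate 2 and in pMSCV, while replicate 1 stood at 5.69, 44.5 and 12.9 CPM. Markers of other cells were few: 4 of 7 for pericytes (168 and 224 CPM against 149 to 484 CPM in pMSCV), 3 of 8 for endothelium (0.505 and 0.356 CPM against 0.888 to 5.99 CPM) and 2 of 5 for adipocytes (5.83 and 62.2 CPM against 33.3 to 269 CPM) were in the table. In bulk RNA fewer cells of a type and less RNA per cell cannot be told apart. Whether the difference in these genes bears on the interferon-induced genes was not tested, and the summed GTPase levels were 378 CPM in replicate 1 and 282 CPM in replicate 2.

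Matrix genes also split. Of 29 collagen and matrix genes 1 was higher and 1 lower at an unadjusted p below 0.05, and the medians were -1.25 in replicate 1 and 0.40 in replicate 2. Without SRF-PDGFRB replicate 2, 9 were lower and 1 was called, and the median of -0.38 became 0.09 without replicate 1 and 0.22 without pMSCV replicate 2. Col1a2, a chain of fibrillar collagen, stood at 67.8 and 1252 CPM against 495, 1895 and 903 CPM. Col2a1, the cartilage collagen, went the other way, at 32.7 and 1.25 CPM against 0.138, 0.705 and 0.981 CPM (log2 fold change 4.79, SE 1.35; edgeR adjusted p = 0.478). Replicate 1 was below pMSCV for Col1a2 and far above it for Col2a1, with replicate 2 within or just above it. For Col2a1 the 9 libraries of the other fusions stood at 3.84 to 74.7 CPM, above every pMSCV library. Replicate 1 lay within that range and replicate 2 below it. Postn, a matrix protein of healing tissue, stood at 0.138 and 2.09 CPM against 0.692, 36.7 and 3.46 CPM (log2 fold change -3.60, SE 1.48; edgeR adjusted p = 0.590), and pMSCV replicate 2 was the highest of the 3 pMSCV libraries. The 9 libraries of the other fusions stood at 9.65 to 73.3 CPM, above both SRF-PDGFRB libraries. The 28 cell cycle genes had a median log2 fold change of 0.01 and none at an unadjusted p below 0.05, with replicate 1 below replicate 2 in 26. That median ranged from -0.33 to 0.34 when 1 library was left out. Mki67, the proliferation antigen, stood at 541 and 732 CPM against 622, 232 and 776 CPM.

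With all libraries in and no block, edgeR called no gene lower, against 469 at an unadjusted p below 0.05, 21 called by DESeq2 and 45 called by edgeR without SRF-PDGFRB replicate 2. Among genes with at least 50 counts in every pMSCV library, an unadjusted p below 0.05 and groups that did not overlap, the 8 largest lower values were those of Syt1, F2rl1, Glrp1, Igsf9b, Slc14a1, Lingo2, Rhox5 and Wnt7b, with log2 fold changes of -5.11 to -2.97 and edgeR adjusted p of 0.515 to 0.612. Syt1, the calcium sensor of vesicle release, stood at 0.735 and 0.267 CPM against 37.4, 12.3 and 2.66 CPM. Wnt7b, a secreted Wnt ligand, stood at 0.321 and 3.87 CPM against 29.7, 5.73 and 14.1 CPM. Rhox5, a homeobox gene, stood at 2.39 and 1.02 CPM against 34.0, 15.9 and 4.30 CPM. The pMSCV libraries themselves ranged widely in these genes, and for all 8 the other 12 libraries held values as low as, or lower than, the higher SRF-PDGFRB library.

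Over the whole table, the pair disagreed in a number of genes that lay between those of the pMSCV pairs. Of 12572 genes at a mean of 1 CPM or more in the 5 libraries, 2170 (17.3%) differed at least 2-fold between SRF-PDGFRB replicates 1 and 2. The pMSCV pairs gave 2641, 1060 and 3075. In 1118 genes (8.89%) both libraries lay above the pMSCV range and in 860 (6.84%) both lay below it, while in 1093 (8.69%) 1 lay above and the other below. At least 2-fold from the pMSCV mean, 108 genes were higher in both libraries, 110 lower in both and 200 in opposite directions. Replicate 1 accounted for more of the distance, with 1888 genes at least 2-fold from the pMSCV mean against 693 in replicate 2.

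**Figure D4:**
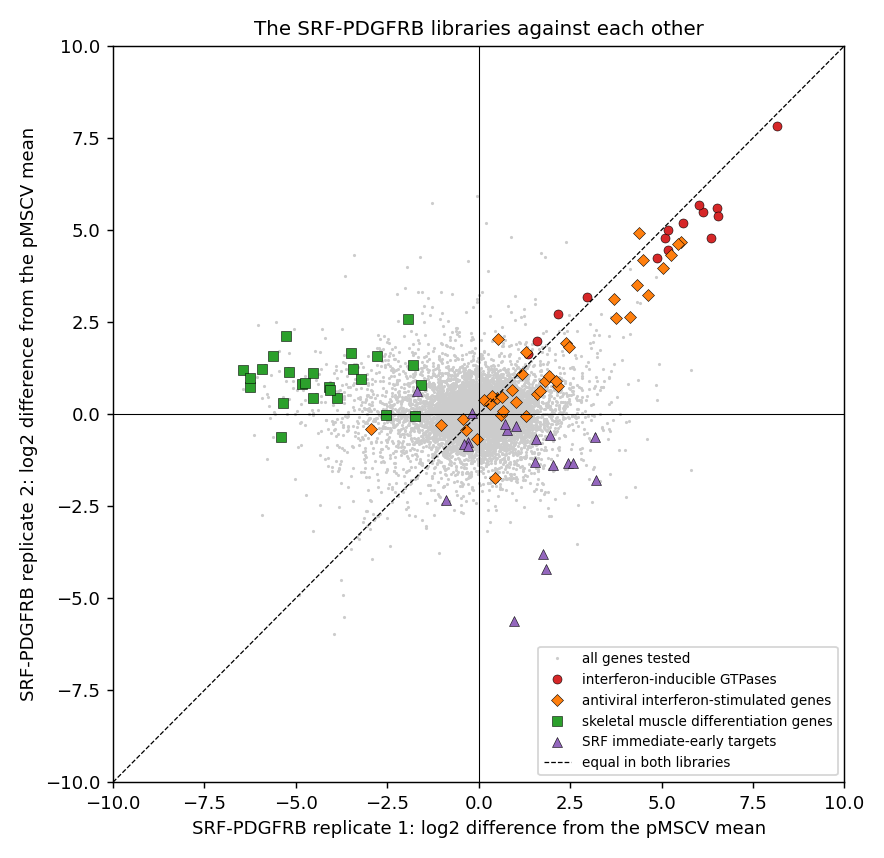
Difference of each gene from the mean of the 3 pMSCV libraries, in log2 CPM with a prior count of 2, in SRF-PDGFRB replicate 1 (horizontal axis) and replicate 2 (vertical axis). Grey points are all 15062 genes, coloured symbols 4 gene lists, and the dashed line marks equal values. The GTPases lie high and near the dashed line, the skeletal muscle differentiation genes to the left with replicate 1 low, and most immediate-early targets below the dashed line.

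Among genes chosen for the widest gap between the replicates were Fos, Nr4a1, Cxcl1, Zfp36 and Hmox1, higher in replicate 1, and H19, Sulf1, Alox5, Igfbp2 and Ttn, higher in replicate 2. Cxcl1, a neutrophil attractant, stood at 497 and 11 CPM against 75.9, 275 and 9.11 CPM. Hmox1, the haem-degrading stress enzyme, stood at 610 and 37.0 CPM against 62.4, 81.3 and 25.5 CPM. H19, an imprinted non-coding RNA, stood at 16.3 and 1627 CPM against 429, 1221 and 704 CPM. For H19 and Hmox1 the SRF-PDGFRB replicates spanned more than the pMSCV libraries, and for Cxcl1 replicate 2 lay inside their range.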

How the data were processed

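The deposited table holds raw read counts per gene for 17 libraries of mouse C2C12 lines. Per the labels' protocols, RNA taken with TriPure and treated with DNase went into Illumina NovaSeq sequencing of stranded TruSeq libraries. The authors made the counts with FastQC 0.11.8, Trimmomatic 0.39, HISAT2 and featureCounts (Subread 2.0.0) on GRCm38, per the submitters' processing notes. The annotation release and the strand setting of the counting are not given in the sources used here.

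The deposited counts were tested with no further filter, because each of the 15062 genes already had at least 10 counts in at least 3 libraries. Of these, 1531 had no symbol in the table, and 1519 were given one by identifier. edgeR 4.0.16 in R 4.3.3 was used with TMM normalisation, robust dispersions and the quasi-likelihood test over all 17 libraries in 6 groups, so that all lines share 1 estimate of the spread (biological coefficient of variation 36.5%). Replicates entered unpaired. P-values were adjusted by Benjamini-Hochberg over all genes, with calls made below 0.05. Plotted log2 CPM have a prior count of 2. For genes near 0, 3 counts per library was taken as the floor, which covers counting error only. The procedure was tested on simulated counts. Libraries of 1 group differed by more than sampling noise, and none was counted as a copy. The alternatives were DESeq2 1.42.0, other scalings and filters, a fit of the 5 libraries alone, the replicate number as a block and leaving out each library.

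The comparison, the gene lists and the rule for named genes were chosen with earlier results of these data known. The rule names Srf and Pdgfrb, the called genes, up to 8 genes with the largest higher and lower values among those with an unadjusted p below 0.05, no overlap and 50 counts or more throughout whichever group was higher, up to 6 members of each interferon list and 2 of each other list by smallest p, and up to 5 genes per direction with the widest gap between the replicates. Others, among them Gbp7, Gvin2, Cmpk2, Zbp1, Ifit1, Ifitm3, H2-K1, B2m, Irf1, Ddx58, Pdgfb, Pdgfd, Myog, Mymk, Myod1 and Col1a2, were named after their values were seen.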

Additional observations from a re-analysis of the deposited data

Results flagged for a closer look

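In 21 genes the effect of SRF-PDGFRB differed from the mean effect of SRF-FOXO1, SRF-ICA1L and SRF-RELA, by the edgeR test of that difference (adjusted p below 0.05, from 4.91e-06 for Gbp3 to 0.0336 for Irgm1 and Olfr56). Because pMSCV is subtracted from both sides it cancels, and the difference is between the fusion lines alone. All 21 were higher in SRF-PDGFRB. Among the guanylate-binding proteins the log2 difference was 6.39 for Gbp5, 5.53 for Gbp2b, 5.12 for Gbp3 and 4.25 for Gbp2. Among the other interferon-inducible GTPases it was 7.76 for Iigp1, 6.22 for Tgtp2, 5.20 for Tgtp1, 4.78 for Igtp, 4.42 for Irgm2, 3.70 for Gm12185, 3.35 for Ifi47 and 1.13 for Irgm1. Antiviral genes gave 6.02 for Rsad2, 5.84 for Mx1, 5.64 for Cmpk2, 4.95 for Zbp1 and 2.26 for Xaf1. In antigen presentation, Nlrc5 gave 2.37 and H2-K1 1.36. For both genes the 9 libraries of the other fusions lay below every pMSCV library. Against pMSCV their log2 fold changes were 0.97 and 0.37.

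The remaining 2 genes were on no list. Mpeg1, which encodes the pore-forming perforin-2 of macrophages, gave 5.0, with 5.88 and 2.58 CPM in SRF-PDGFRB, 0.692, 1.19 and 0.234 CPM in pMSCV and at most 0.385 CPM in the 9 libraries of the other fusions. Olfr56, which overlaps Ifi47 on the same strand, gave 3.86, with 2.39 and 0.712 CPM in SRF-PDGFRB, and its reads may belong in part to Ifi47.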

How the results depend on the processing

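Against pMSCV, 3 genes were called, and the count was also 3 with RLE scaling, library sizes alone or without robust dispersions. The setting with no filter repeated the main fit, because that fit removed no gene. Its agreement, here and in the counts below, was therefore fixed in advance. DESeq2 called 70, a filter of at least 1 CPM in at least 2 libraries left 1, and a fit of only the groups compared left 0. Leaving out 1 library gave 1 to 75 genes. Against the other fusions 21 genes were called, DESeq2 called 46, and leaving out 1 library gave 13 (without SRF-PDGFRB replicate 2) to 54 (without SRF-PDGFRB replicate 1). With a replicate block, 50 genes passed against pMSCV (27 higher, 23 lower), and the log2 fold changes of Nr4a1 (0.16) and H19 (-0.53) turned sign. The numbers share no stated origin. With 2 shared numbers, same-numbered libraries of SRF-PDGFRB and pMSCV had deviations correlated at 0.172 and -0.086, so they were not taken as pairs. Over single genes named in the text, 826 of the recomputed log2 fold changes kept direction and side of the threshold, 34 passed it, 13 no longer did and 37 turned sign.

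When each of the 5 libraries was left out in turn, log2 fold changes ranged from -0.22 to 0.01 for Srf, -0.19 to 0.75 for Pdgfrb, -2.27 to 2.17 for Egr1, -1.98 to 2.29 for Junb, -6.49 to 0.23 for Fos, -5.40 to 1.37 for Nr4a1, -2.24 to 2.80 for Zfp36, -3.46 to 2.57 for Cxcl1 and -0.62 to 3.43 for Hmox1. They ranged from -3.92 to 0.40 for Des, -4.60 to 0.37 for Cdh15, -4.95 to 0.74 for Ttn, -0.40 to 0.47 for Mef2a, -0.37 to 0.69 for Mef2d, -5.59 to 1.04 for H19, -5.16 to 0.83 for Sulf1, -5.60 to 0.25 for Alox5 and -5.48 to 0.20 for Igfbp2. They ranged from -0.07 to 0.35 for Flna, -0.18 to 0.96 for Acta2, -0.14 to 1.5 for Actg2, -0.14 to 0.58 for Mki67 and -0.31 to 0.63 for Top2a. The cause was not tested. Median values of lists moved by more than the spread between libraries without 1 library: GTPases 6.71 without pMSCV replicate 2, sensors 0.29, cytokines -0.29 and ERK-induced genes -0.53 without SRF-PDGFRB replicate 1, and muscle differentiation -4.95 and matrix genes -1.35 without SRF-PDGFRB replicate 2.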
